A study of Mus musculus with 18 samples.

Results

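GABA and glutamate carry most of the fast signalling between neurons, and their receptors are built from subunits made by separate genes. The genes described here are the 45 rows of the deposited gene table, of 31441, whose symbols name a GABA or glutamate receptor subunit. They were taken by symbol alone: 44 encode receptor subunits and the remaining one does not. RNA came from mouse embryonic stem cells of strain J1 that had been directed toward midbrain dopamine neurons and separated by fluorescence-activated sorting between days 14 and 15. The 3 lines differ in their reporter, a fluorescent protein placed by a bacterial artificial chromosome under the regulatory region of 1 gene: Hes5::GFP, Nurr1::GFP or Pitx3::YFP. From each line the reporter-positive and the reporter-negative cells were hybridised to Illumina mouse bead arrays, 3 arrays for each of the 6 fractions and 18 in all. Hes5 acts downstream of Notch in neural progenitors, Nurr1 (the product of Nr4a2) is needed for the dopamine fate, and Pitx3 marks dopamine neurons after they leave the cell cycle.

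The GABA-A receptor is a chloride channel of mixed subunits, commonly alpha, beta and gamma, while the GABA-B receptor is a G protein-coupled dimer. AMPA receptors carry the fast excitatory current, kainate receptors modulate it on both sides of the synapse, and NMDA receptors, which need the Grin1 subunit, admit calcium. The metabotropic receptors (Grm) act through G proteins. Midbrain dopamine neurons receive both kinds of input.

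The fractions were placed by Th, the dopamine-synthesising enzyme, whose normalized log2 intensity was 13.46 ± 0.74 (SD, n = 3) in Pitx3-positive cells and 8.65 ± 1.0 in Pitx3-negative cells. It was 12.52 ± 0.61 in Nurr1-positive and 9.43 ± 1.27 in Nurr1-negative cells, and 8.30 ± 2.48 and 7.97 ± 2.78 in Hes5-positive and Hes5-negative cells. Of 10 dopamine neuron markers, 10 were higher in the positive cells of both the Pitx3 and the Nurr1 sort (median differences 2.61 and 2.05). In the paired fit described below, 8 of them had an adjusted p under 0.05 in the Pitx3 sort and 3 in the Nurr1 sort. The arrays detected 33.5 to 37.4% of probes. The second Hes5-negative array is called GFP-negative by its title and genotype and GFP-positive by its source name, and it was kept as negative. It stood apart from the other Hes5-negative arrays, with a mean log2 level of 10.51 for the pan-neuronal markers against 8.87 and 8.96. The first Pitx3-positive array stood apart too, with 9.30 for cycling markers against 5.16 and 7.75, and 8.16 for pluripotency markers against 4.84 and 5.99. Calls of receptor genes that rest on these arrays are given with and without them, as are the named partner genes of the Pitx3 sort and the correlations between genes. Marker lists use all arrays unless stated. The labels do not say whether replicates were separate differentiations, so the p-values speak only of how much these arrays varied. In sorted bulk RNA, fewer cells of a type and less RNA per cell cannot be told apart.

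Which receptors had a measurable transcript was read first. A probe was taken as above background on an array at a detection p-value under 0.01, and a gene was tested when a probe of it reached this on at least 3 arrays. Of the 45 genes 17 were tested (37.8%), against 43.2% of the whole gene table, and 26 were above background on no array. The classes differed in how many of their members were read. All 4 AMPA subunits (Gria1 to Gria4), 4 of 5 kainate subunits (Grik1, Grik2, Grik4 and Grik5, not Grik3) and the GABA-B subunit Gabbr1 were tested. Of 7 NMDA subunits only Grin2c was, and of 8 metabotropic receptors only Grm7. Gabbr2 and Gabrr3 were not analysed here.

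Among the GABA-A genes the beta subunits Gabrb1 and Gabrb2 and the gamma subunit Gabrg3 were tested. The alpha subunits Gabra2, Gabra3, Gabra4, Gabra5 and Gabra6 were not, nor were Gabrg1, Gabrd, Gabre, Gabrp, Gabrq, Gabrr1 and Gabrr2. Many GABA-A genes lie in clusters that join alpha, beta and gamma genes. In the RefSeq annotation of GRCm38.p6, Gabrb1 follows Gabrg1, Gabra2 and Gabra4 on chromosome 5, and of these only the beta gene was tested. On chromosome 7 Gabrg3 was tested and the neighbouring Gabra5 was not, and on chromosome 11 Gabrb2 was tested and Gabra6 was not.

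The genes that were not tested sat close to the negative control beads. Over the 26 that were above background nowhere, scanner intensity ranged from 15.6 to 98.9, and the median probe of an array had 40.6 to 60.2. Gabra3 was above background on 2 arrays, the second Hes5-negative (6.49 on the normalized log2 scale) and the second Pitx3-positive (6.32). Gabrd was above it on the first Hes5-negative (6.13) and the first Pitx3-negative array (5.83). Of the 28 genes not tested 18 rest on 1 probe, and a dark probe does not show that a transcript is missing: the row named Grin3a was above background on 0 arrays, while a separate cDNA clone row (6430537F04) that RefSeq now names Grin3a was above it on 16. Grin1, without which NMDA receptors do not form, was above background with neither of its 2 probes.

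**Figure D1:**
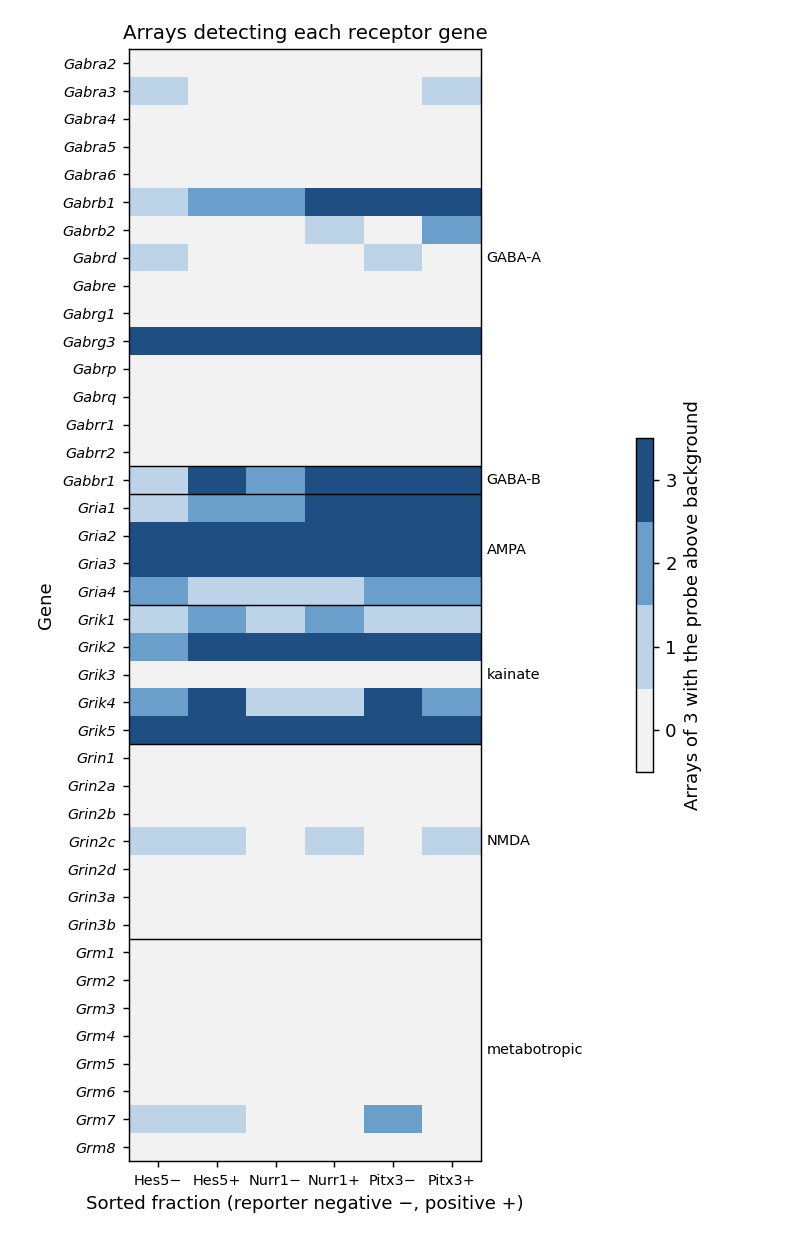
Number of arrays, of 3 per sorted fraction, on which the probe of each of 40 receptor genes was above background (detection p-value under 0.01), with genes in rows by receptor class and fractions in columns. Shaded cells lie mostly among the GABA-A beta and gamma, AMPA and kainate genes (Gabrg1 and Grik3 are blank), and the alpha, NMDA and metabotropic genes are almost all blank.

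The promoters of Grik2 and Grm7 are shown because both genes changed in a sort below and have an entry in the RefSeq promoter table of GRCm38.p6, from 250 bases before to 50 after the gene start. The Grik2 window is chr10:49788705-49789004 on the minus strand, and the Grm7 window is chr6:110645262-110645561 on the plus strand.
Grik2: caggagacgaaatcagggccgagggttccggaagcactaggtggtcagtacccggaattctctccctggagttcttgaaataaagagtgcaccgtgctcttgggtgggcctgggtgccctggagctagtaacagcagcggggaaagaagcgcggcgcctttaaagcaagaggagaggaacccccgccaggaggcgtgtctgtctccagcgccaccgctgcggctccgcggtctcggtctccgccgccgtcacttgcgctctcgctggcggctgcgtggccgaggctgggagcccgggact
Grm7: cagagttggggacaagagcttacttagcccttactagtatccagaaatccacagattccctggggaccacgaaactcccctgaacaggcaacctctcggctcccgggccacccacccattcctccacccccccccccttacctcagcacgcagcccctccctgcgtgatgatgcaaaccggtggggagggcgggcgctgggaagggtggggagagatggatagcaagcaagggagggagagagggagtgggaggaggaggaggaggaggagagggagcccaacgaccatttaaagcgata
Both are printed 5′ to 3′ in lower case, and no letters are in capitals because neither window holds any of the 3 motifs searched on both strands. These were AAAGGTCA, the monomer site bound by Nurr1 (in 1.51% of all 32851 promoters), TAATCC, the site bound by Pitx factors (7.06%), and GTGGGAA, the site of the Notch effector Rbpj (6.38%). Over the 31 member genes with an entry, the first was in no promoter, the second in those of Gabra2 and Gabrr2, and the third in those of Gabrb2, Gabrg3, Grik3 and Grm3. A match is only a description of the letters.

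In the Pitx3 sort, 4 of the 17 tested genes changed when fractions of the same replicate number were compared as pairs. Among them the AMPA subunit Gria3 rose in Pitx3-positive cells and the metabotropic receptor Grm7 fell. Grm7 was tested only because 2 of its 4 arrays above background were Pitx3-negative, the group where it was high. Gria3 was 4.18-fold higher. A gene was called when its limma p, adjusted by Benjamini-Hochberg across the 13580 tested genes of the array, was under 0.05. Pairing was used beside the fit without pairs because same-numbered fractions of a line deviated together in all 9 pairs. The labels do not say that equal numbers mark the same sort, so the pairs rest on these same data. The 4 genes called, Grm7 included, are 23.5% of the tested members, against 15.2% of all genes tested, of which 6.31% rose and 8.87% fell. Without pairs no member was called (0 of 17, against 0.383% of all genes), and 4 had an unadjusted limma p under 0.05. The median difference of the 17 was 0.18 on the log2 scale, and that of all genes 0.01.

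Gria3 forms part of the AMPA channel. In Pitx3-negative cells its normalized log2 intensity was 7.21, 7.41 and 7.31 in replicates 1 to 3, and in Pitx3-positive cells it was 8.33, 10.00 and 9.77. All 3 positive arrays lay above all 3 negative ones, and the first positive array was the lowest of its group. The difference was 2.06 (SE 0.35, paired adjusted p = 0.0131, without pairs 0.181), and it was positive in 3 of 3 pairs, at 1.12, 2.59 and 2.47. Leaving out 1 pair at a time gave limma adjusted p-values of 0.00686 to 0.113. The call was lost without Pitx3 pair 2 (1.80, adjusted p = 0.104) or pair 3 (1.86, adjusted p = 0.113), where 0.214% and 0.118% of all genes were called. Without the first Pitx3-positive array the unpaired fit called Gria3 as well (2.58, adjusted p = 0.0388), with 7.7% of all genes called in that fit. A second probe of Gria3 gave 0.98. Non-overlapping groups were seen for 3 of the 17 genes in this sort, Gria3 and Grm7 among them, against 17.1% of all genes tested.

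Pan-neuronal markers moved with Gria3. Their mean log2 level was 10.43 to 11.21 in Pitx3-positive and 9.72 to 10.87 in Pitx3-negative arrays, with 9 of 10 tested markers higher and a median difference of 0.76. The paired fit called 1 of them higher. Dopamine neuron markers rose as well, with 10 of 10 higher, a median of 2.61 and 8 called. The part of either list in the rise of Gria3 was not tested.

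Grm7 encodes a presynaptic metabotropic receptor that lowers transmitter release. Its normalized log2 intensity was 5.45, 7.41 and 6.01 in Pitx3-negative cells and 4.86, 4.95 and 4.75 in Pitx3-positive cells. Only the second and the third negative arrays were above background, and the groups did not overlap. Because the positive fraction gives only a bound, Grm7 was at least 1.23-fold higher in negative cells, the dim group being set for each array at the lowest signal among probes above background or the probe's own, whichever was higher. The fitted difference was -1.43 (SE 0.32, paired adjusted p = 0.0222, without pairs 0.295), with 3 of 3 pairs lower. Over all 18 arrays Grm7 was above background on 4, of which 2 were Pitx3-negative, 1 Hes5-negative and 1 Hes5-positive. Without the Pitx3-negative arrays it would have missed the 3-array filter, so it was tested only through the group where it was high. With no filter on dim probes the paired fit did not call Grm7. A separate cDNA clone row (6330570A01Rik) that RefSeq now names Grm7 was 7.48 ± 1.03 in Pitx3-negative and 5.53 ± 0.41 in Pitx3-positive cells, a difference of -1.95 (limma paired adjusted p = 0.026, without pairs 0.295). The other probes of the row named Grm7 were above background on 0 arrays, with differences of 0.01 and -0.05. The call for Grm7 was lost without Pitx3 pair 2 (-0.92, adjusted p = 0.132) or pair 3 (-1.52, adjusted p = 0.119), the range over single pairs being 0.0109 to 0.132. Without these pairs 0.214% and 0.118% of all genes were called.

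Markers of several other cell types fell beside Grm7. The 8 serotonin neuron markers had mean log2 levels of 9.32 to 10.76 in Pitx3-negative and 6.52 to 7.46 in Pitx3-positive arrays, and 8 of 8 fell in the paired fit. Radial glia and progenitor markers stood at 10.63 to 11.14 and 7.67 to 9.92, with 9 of 9 tested called lower. The astrocyte and oligodendrocyte list stood at 6.87 to 9.56 and 6.28 to 6.91, with 0 of 7 higher and 4 called lower. Cycling markers were higher for 0 of 6, with 5 called lower, and GABA neuron markers for 0 of 5, with 4 called lower. Pluripotency markers were higher for 5 of 8, with 0 called. The 4 arrays with Grm7 above background were the second Hes5-negative, second Hes5-positive, and the second and the third Pitx3-negative, and their serotonin marker levels were 10.39, 9.28, 10.76 and 10.18. On the first Pitx3-negative array (9.32) and the second Nurr1-negative array (9.24) Grm7 was not above background. Whether these cells carry the Grm7 transcript was not tested.

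**Figure D2:**
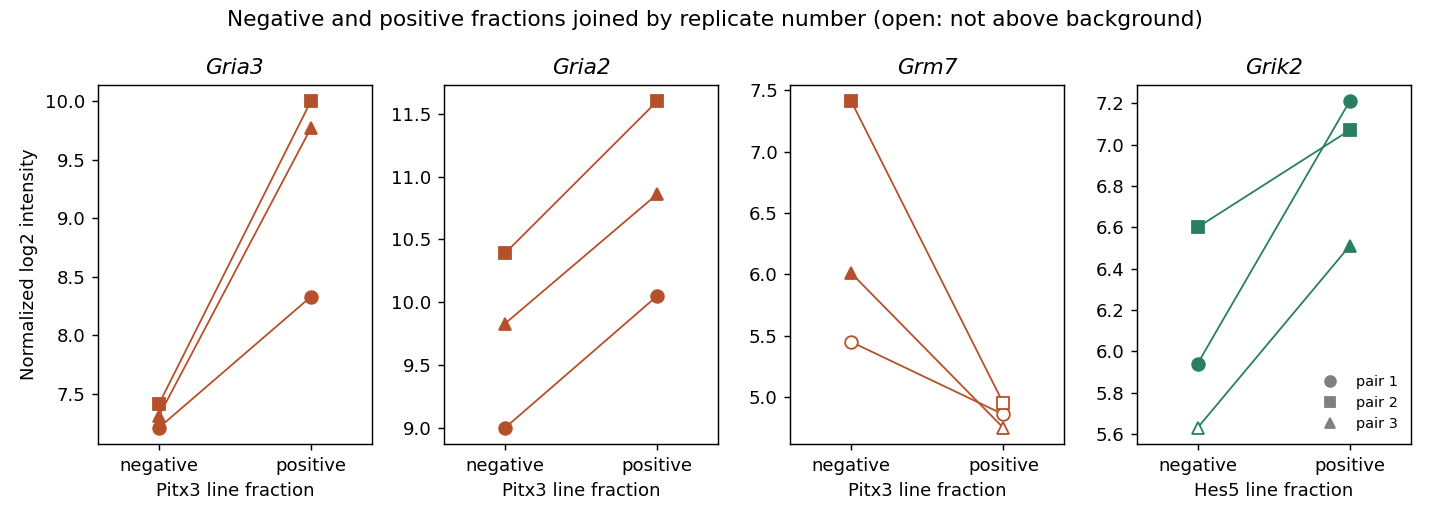
Normalized log2 intensity of 4 receptor genes in the negative and positive fractions, with lines joining same-numbered arrays (circle, square and triangle for pairs 1, 2 and 3; open symbols are not above background). In the Pitx3 line Gria3 and Gria2 rise and Grm7 falls in 3 of 3 pairs, and Grik2 rises in 3 of 3 pairs of the Hes5 line; Gria2 was not called (adjusted p = 0.0988).

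Gria2, the AMPA subunit that keeps calcium out of the channel, was not called in the Pitx3 sort. It was 9.0, 10.39 and 9.83 in negative and 10.05, 11.60 and 10.86 in positive cells. The groups overlapped although each pair differed by 1.03 to 1.21 (difference 1.10, SE 0.41, limma paired adjusted p = 0.0988, without pairs 0.369). Gabbr1 was 5.85, 7.46 and 6.81 against 6.53, 7.84 and 7.67, higher by 0.64 with overlapping groups (paired adjusted p = 0.33). Gabrb1 was 7.51 ± 1.20 in negative and 7.87 ± 0.31 in positive cells. Gabrg3 was 6.80 ± 0.11 and 7.09 ± 0.41. None of these GABA receptor genes was called. Gabrb2, which was not called either, was above background on 0 of 3 negative and 2 of 3 positive arrays, at least 1.05-fold higher (paired adjusted p = 0.151).

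The kainate genes and the other AMPA genes were not called in this sort. The kainate subunit Grik5, an auxiliary-type subunit that needs a partner to form a channel, was 8.34, 9.0 and 8.78 in negative and 8.44, 9.38 and 8.75 in positive cells, differing by 0.15 (95% interval -0.35 to 0.65, limma paired adjusted p = 0.672). Grik4 was 6.12, 6.26 and 6.40 against 5.89, 6.37 and 5.63, with the third positive array not above background (-0.30, paired adjusted p = 0.366). Gria1 differed by -0.20 (SE 0.47), Gria4 by -0.18 (SE 0.17), Grik1 by -0.23 (SE 0.48) and Grik2 by -0.09 (SE 0.16). Gria4 was above background on 9 of the 18 arrays, with group means of 5.56 to 6.24 over the 6 fractions, and Grik1 on 8, with group means of 5.50 to 6.02. The NMDA subunit Grin2c was above background on 0 of 3 negative arrays (5.73, 5.52 and 4.93) and on the second of 3 positive ones (5.64, 6.37 and 5.46), at least 1.01-fold higher (paired adjusted p = 0.185).

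In the Nurr1 sort the receptor genes leaned toward Nurr1-positive cells, with 13 of 17 higher and a median difference of 0.50 against -0.02 for all genes, but none was called. Of the 17, 13 were also higher in the Hes5 sort (median 0.18 against 0.04 for all genes), and 10 in the Pitx3 sort. In limma 0 of 17 passed without pairs (0.0221% of all genes were called, and 3 members had an unadjusted p under 0.05) and 0 of 17 in the paired fit (0.766%), where 8 had an unadjusted p under 0.05. Leaving out Hes5 pair 1 brought 4 of 17 under the threshold, with 8.82% of all genes called in that fit, and among them were Gria2 (1.49, adjusted p = 0.0362), Gria3 (1.23, 0.0411) and Grik2 (0.50, 0.0496).

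Groups did not overlap for 4 of 17 genes in the Nurr1 sort, Gabrb1, Gria2 and Gabbr1 among them, close to the 23% of all genes. Gria2 was 7.70, 8.47 and 9.46 in negative and 10.15, 9.58 and 10.36 in positive cells (1.49, SE 0.41, limma paired adjusted p = 0.093). Gabbr1 was 5.17, 6.04 and 6.10 against 6.85, 6.92 and 6.75, with the first negative array not above background (1.07, SE 0.43, paired adjusted p = 0.172). Gabrb1 rested at 5.92 ± 0.96 and 7.39 ± 0.40 (1.48, SE 0.53, paired adjusted p = 0.143). Gria3 was 7.22, 7.77 and 9.01 against 8.63, 9.30 and 9.77. The third negative array lay above the first positive one, so the groups overlapped, and the difference was 1.23 (SE 0.35, paired adjusted p = 0.0967). A second probe of Gria3 gave 0.41. Pan-neuronal markers were at 10.62 to 10.94 in Nurr1-positive and 8.68 to 10.25 in Nurr1-negative arrays, with 10 of 10 higher and a median difference of 1.31. Their part was not tested.

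Grm7, which fell in the Pitx3 sort, was above background on 0 of 6 Nurr1 arrays, where it ranged from 4.66 to 5.46. Grik2 was 5.99, 6.29 and 6.95 against 6.50, 6.77 and 7.46. Every pair was higher, by 0.48 to 0.51, although the groups overlapped (0.50, SE 0.16, paired adjusted p = 0.114). Grik5 was 8.55, 8.71 and 8.49 against 8.70, 8.79 and 8.71, Grik4 was 6.0, 5.90 and 5.67 against 5.66, 5.84 and 5.79, and Grin2c was above background only on the second Nurr1-positive array (6.25).

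**Figure D3:**
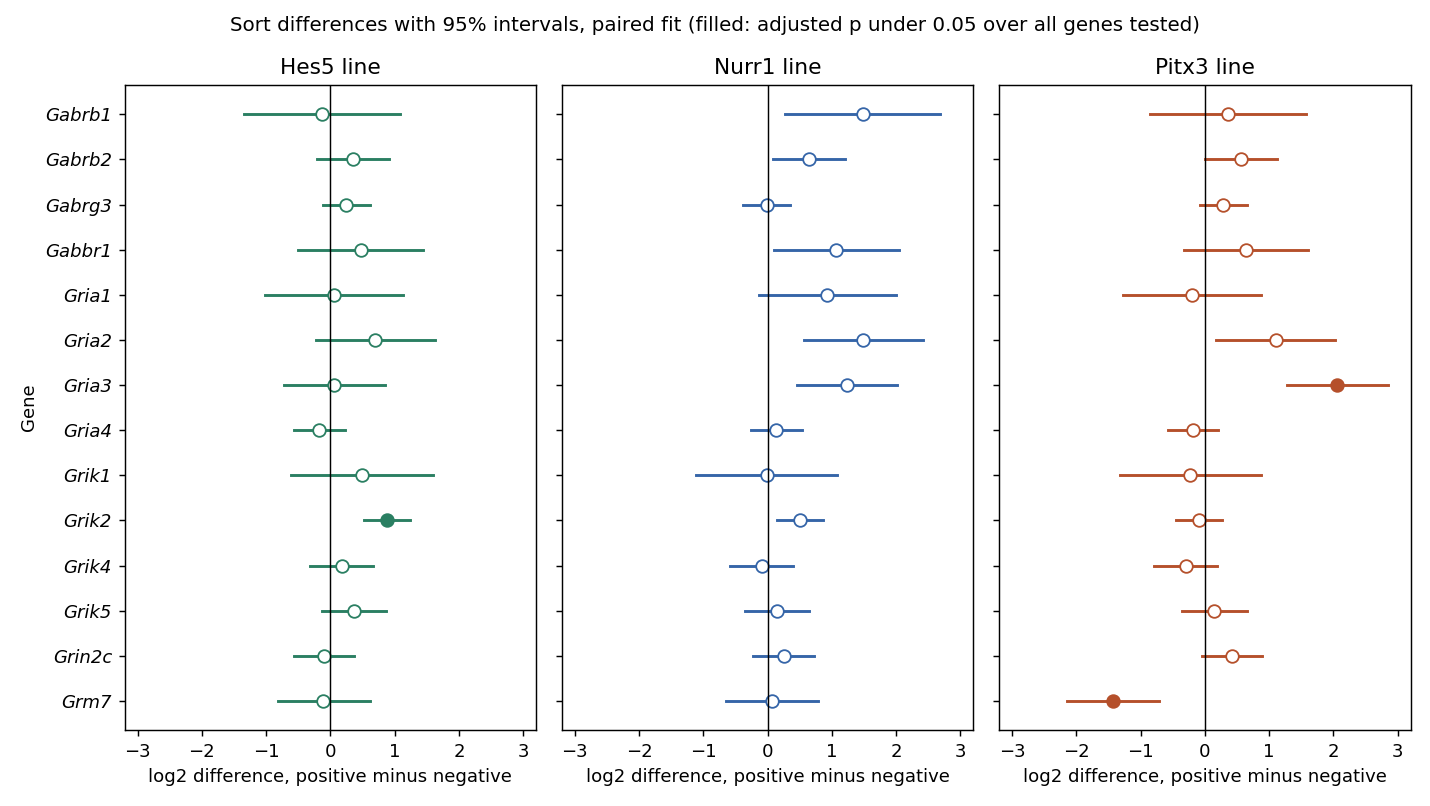
Difference in normalized log2 intensity between positive and negative fractions (horizontal axis) for 14 tested genes in the 3 lines, from the paired fit, with 95% intervals; filled points have an adjusted p under 0.05. Grik2 is filled in the Hes5 line, none in the Nurr1 line, and Gria3 and Grm7 in the Pitx3 line.

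In the Hes5 sort 1 receptor gene changed, the kainate subunit Grik2, which rose in Hes5-positive cells in the paired fit. That is 5.88% of the 17 against 1.3% of all genes. Without pairs limma called 0 of 17 (0.0147% of all genes), and 0 had an unadjusted p under 0.05. Grik2 was 5.94, 6.60 and 5.63 in Hes5-negative cells, the third not above background, and 7.21, 7.07 and 6.51 in Hes5-positive cells. The third positive array lay just below the second negative one, so the groups overlapped, but each pair rose, by 1.28, 0.47 and 0.89. The difference was 0.88 (SE 0.16, 1.84-fold, paired adjusted p = 0.0477, without pairs 0.753). A second probe of Grik2 was above background on 0 arrays and gave 0.11. Over single pairs left out the limma adjusted p ran from 0.00958 to 0.218. It stayed under the threshold without Hes5 pair 2, which holds the array with contradictory labels (1.08, 0.00958; 8.95% of all genes were called in that fit). Gabbr1 passed there as well (adjusted p = 0.0475), but neither remaining Hes5-negative array was above background for it, so no size is given. With any other pair left out Grik2 missed the threshold. Its limma adjusted p was 0.157 without Hes5 pair 1 and 0.218 without Hes5 pair 3, where 0.0221% and 0.0295% of all genes were called. Without a Nurr1 or Pitx3 pair it was 0.0574 to 0.0881. With no filter on dim probes it missed the threshold too (paired adjusted p = 0.0711).

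Markers of other cell types also differed in the Hes5 sort. Pluripotency markers were higher in Hes5-positive cells for 0 of 8 (median -2.29) and fibroblast and stromal markers for 0 of 7 (median -2.0, 3 called). Astrocyte and oligodendrocyte markers were higher for 7 of 7 (median 1.01), GABA neuron markers for 5 of 5 (1.79), radial glia and progenitor markers for 8 of 9 (0.53) and pan-neuronal markers for 9 of 10 (0.45), with 0 called in each of these lists. Without Hes5 pair 2 the paired fit called 8 of 8 pluripotency markers lower (median -3.24) and again 3 of 7 fibroblast and stromal markers. It called 3 of 10 pan-neuronal, 1 of 5 GABA neuron and 1 of 9 radial glia and progenitor markers higher, and 0 of 7 astrocyte and oligodendrocyte markers. The part of these markers in the rise of Grik2 was not tested.

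Groups overlapped for all 17 genes in the Hes5 sort (10.2% of all genes did not overlap), and the second Hes5-negative array was the highest of the line for several of them. In Hes5-negative cells Gabbr1 was 5.12, 7.33 and 5.33, with only the second array above background, and in Hes5-positive cells it was 6.90, 6.30 and 6.0. Gabrb1 and Gria1 were likewise above background in Hes5-negative cells on the second array alone, at 7.98 and 7.74. Gria2 was 7.59, 9.67 and 8.55 against 9.54, 9.28 and 9.08, and Gria3 was 6.51, 8.95 and 7.13 against 7.50, 8.68 and 6.58. For these 5 genes it was the highest of the 6 Hes5 arrays. Grik5 was 7.65, 8.92 and 8.45 against 8.76, 8.63 and 8.73, Grik4 was 5.73, 6.58 and 5.77 against 6.07, 6.18 and 6.37, and Grin2c was above background only on the first array of each fraction (6.04 and 5.99).

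**Figure D4:**
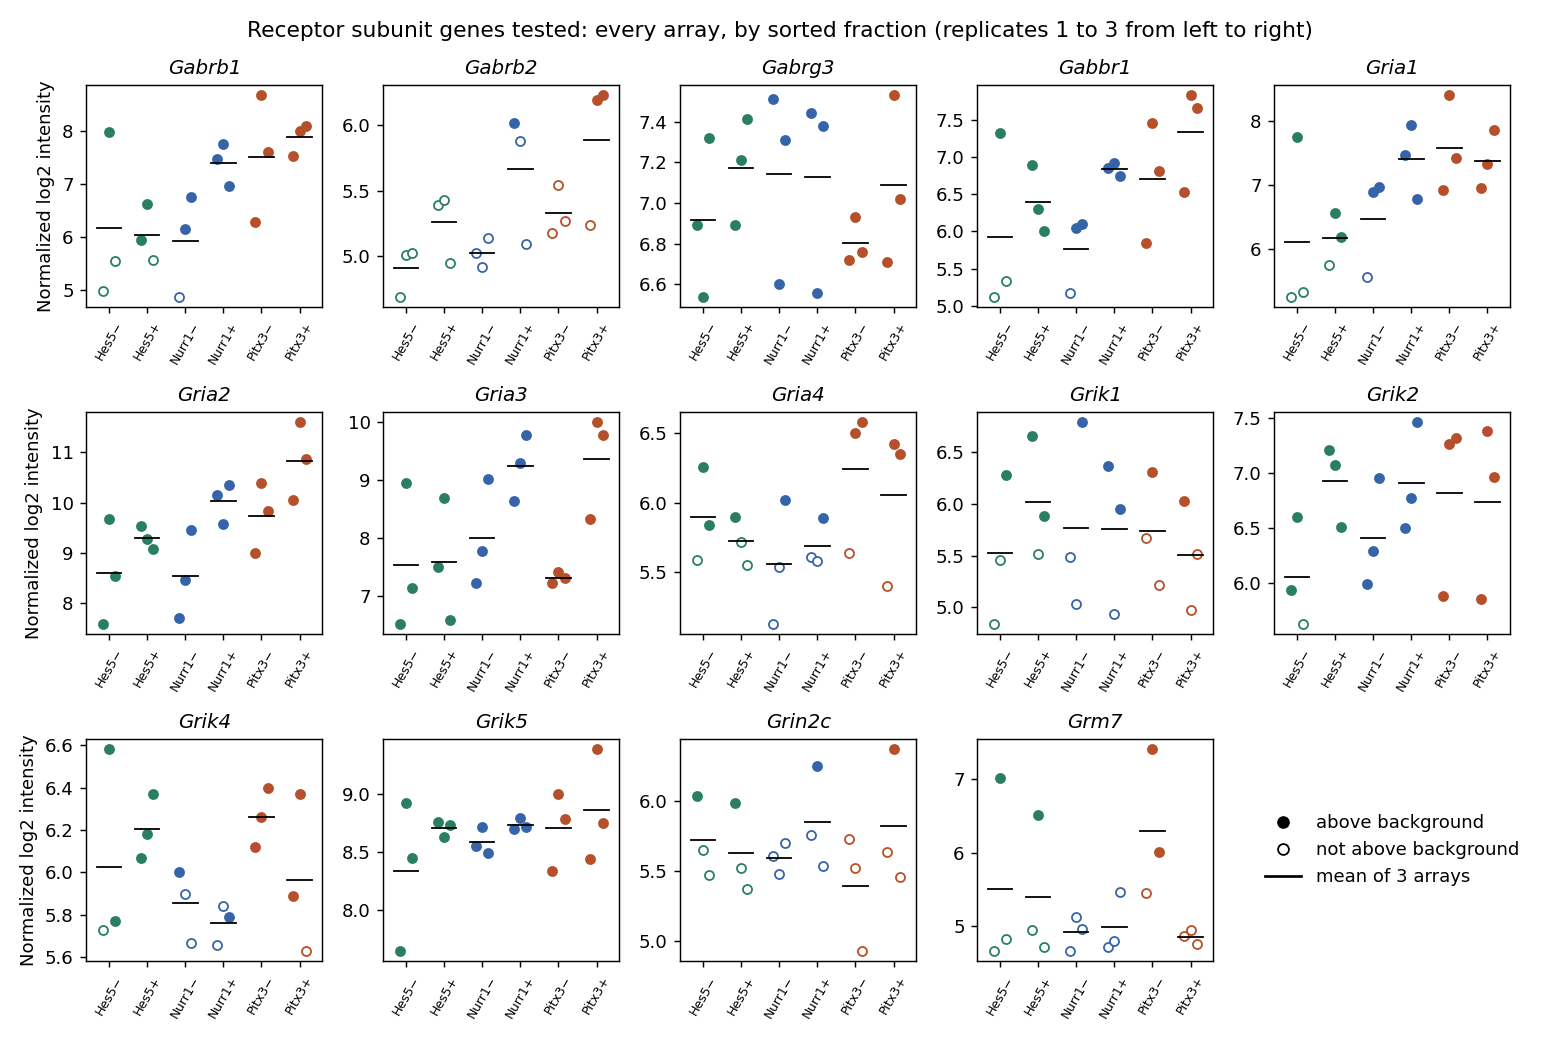
Normalized log2 intensity (vertical axis, a separate scale for each gene) of 14 tested genes on all 18 arrays, by sorted fraction, with replicates 1 to 3 from left to right, filled points above background, open points not above it, and bars at the mean of 3 arrays. Gria3 has its highest means in Nurr1-positive (9.23) and Pitx3-positive cells (9.37), and Grm7 has no filled point in Pitx3-positive cells.

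The reporter-positive fractions were compared next. Between Pitx3-positive and Hes5-positive cells the groups of 5 of 17 genes did not overlap, near the 27.1% of all genes. Among them Gabrb1 (1.83, SE 0.71, limma adjusted p = 0.129), Gria1 (1.21, SE 0.60, 0.223) and Gria2 (1.54, SE 0.55, 0.104) were higher on every Pitx3-positive array. In limma 1 of the 17 was called there (5.88%), near the 4.64% of all genes called, of which 2.16% were higher and 2.47% lower in Pitx3-positive cells. Between Nurr1-positive and Hes5-positive cells 6 of 17 did not overlap (22.3% of all genes), with Gabrb1 (1.36), Gria1 (1.23) and Gria2 (0.73) higher and Grik4 (-0.44) lower among them. None of the 17 was called there in limma (0.39% of all genes, 0.0884% higher and 0.302% lower in Nurr1-positive cells), and 3 had an unadjusted p under 0.05. These contrasts share the Hes5-positive arrays. Without the first Pitx3-positive array, limma called 5 of 17 between Pitx3-positive and Hes5-positive cells, with 12.5% of all genes called in that fit. Among them were Gria2 (1.93, adjusted p = 0.0453), Gria3 (2.30, 0.0456) and Gabrb2, which has no size here because no Hes5-positive array was above background for it. Gabrb2 passed the 3-array filter only through Pitx3-positive and Nurr1-positive arrays.

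Pitx3-positive and Nurr1-positive cells were not separated by any receptor gene. Limma called 0 of 17 (0.0147% of all genes), 0 had an unadjusted p under 0.05, and groups overlapped for all 17 (8.87% of all genes did not). For Gria2 the difference was 0.81 with a 95% interval of -0.35 to 1.98, and for Gria3 it was 0.14 with an interval of -1.27 to 1.55.

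Between the reporter-negative fractions limma called none of the 17 in any of the 3 comparisons. Called genes made up 0.0515% of all genes between Nurr1-negative and Hes5-negative, 0.0147% between Pitx3-negative and Nurr1-negative and 0.0589% between Pitx3-negative and Hes5-negative cells, and 0, 5 and 1 members had an unadjusted p under 0.05. Groups did not overlap for 5 of 17 between Pitx3-negative and Nurr1-negative cells (10.3% of all genes). Among them Grm7 (at least 1.4-fold) and Grik4 (0.40) were higher in Pitx3-negative cells, each with an adjusted p of 0.999. Gabrb2 was among them too, but it was above background on no array of either group, so no direction is given. Between Pitx3-negative and Hes5-negative cells only Gabrb2 did not overlap (6.95% of all genes), again with no array of either group above background, and between Nurr1-negative and Hes5-negative cells no member did (8.25%). Without the contradictory second Hes5-negative array, limma called Gria1 between Pitx3-negative and Hes5-negative cells (adjusted p = 0.0238; 4.93% of all genes were called in that fit). Neither remaining Hes5-negative array was above background for Gria1, so no size is given.

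Whether a sort effect differed between lines was tested directly, and no receptor gene passed. In the paired fit limma called 0 of 17 for Pitx3 against Hes5 (3.33% of all genes), with 5 at an unadjusted p under 0.05, and 0 of 17 for Nurr1 against Hes5 (0%) and Pitx3 against Nurr1 (0%), with 2 each. The Pitx3 effect minus the Hes5 effect was -0.96 for Grik2 (95% interval -1.47 to -0.46, adjusted p = 0.0546) and 2.0 for Gria3 (0.89 to 3.11, 0.0612). The second probe of Gria3 gave 0.98 in the Pitx3 and -0.21 in the Hes5 sort. With Pitx3 pair 1 left out, Gria3 passed (2.47, adjusted p = 0.0234), with 5.28% of all genes called in that fit. Gria3 also passed without Hes5 pair 1 (2.47, 0.0451), and Grik2 (-1.17, 0.0216) without Hes5 pair 2. Of all genes, 1.91% and 5.18% were called in these 2 fits. Without pairs limma called 0 of 17 in each of these contrasts (0.0295%, 0.00736% and 0% of all genes), with 2, 0 and 0 at an unadjusted p under 0.05.

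Several genes varied alike over the 18 arrays. Gabrb1, Gabbr1, Gria1 and Gria2 rose and fell together. Their highest Pearson correlations were 0.94 for Gabrb1 and Gria1 and 0.92 for Gabbr1 and Gria2, and the lowest was 0.72 for Gria1 and Gria2. These are descriptions over 18 arrays that share lines, pairs and normalization. Without the second Hes5-negative and the first Pitx3-positive array, Gabrb1 with Gria1 gave 0.941 and Gabbr1 with Gria2 gave 0.945 over 16 arrays. Over all genes, the closest pattern to Gabbr1 was that of Lhfpl4 (0.970) and to Gria3 that of Limk2 (0.938). Grm7 was closest to Htr1a (0.945), the serotonin 1A receptor, and its own clone row (0.928). Grm7 was above background on only 4 of the 18 arrays, and Htr1a on no Nurr1 and no Pitx3-positive array. Many of the values compared there lay near background. Grik2 was closest to Pcdhb19 (0.915), Grik5 to Phf2 (0.919), Grik4 to Abca2 (0.786) and Grin2c to Ybey (0.735). Without the same 2 arrays these correlations were 0.739 to 0.979.

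Genes that make, release and clear the transmitters were read beside the receptors. Of 17 such genes 13 were tested, and 4 of the 13 were higher in the Pitx3 sort. The paired fit called 2 of the 13 higher and 5 lower there, against 6.31% of all genes higher and 8.87% lower. The vesicular glutamate transporter Slc17a6 rose from 9.70 in Pitx3-negative to 13.00 in Pitx3-positive cells (3.30, SE 0.41, limma paired adjusted p = 0.00651), and the glial glutamate transporter Slc1a3 fell (-2.46, SE 0.50, 0.0188). The GABA-synthesising enzyme Gad1 fell from 9.11 to 6.62 (-2.49, SE 0.53, 0.0204), and another vesicular glutamate transporter, Slc17a8, fell as well (-2.73, SE 0.23, 0.0034). In the Nurr1 sort Slc17a6 rose (2.71, paired adjusted p = 0.0366) and Slc17a8 fell (-1.58, 0.0366), and in the Hes5 sort Slc1a2 rose (1.19, 0.0293). In the Pitx3 sort 0 of 5 tested GABA neuron markers were higher and 4 were called lower, a list that itself holds Gad1 and Slc32a1. The median over the 13 was -0.57 in the Pitx3 sort, against 0.01 for all genes. Without Pitx3 pair 1, all 4 genes named for the Pitx3 sort were still called: Slc17a6 (3.23, paired adjusted p = 0.0104), Slc17a8 (-3.07, 0.00189), Gad1 (-3.28, 0.00754) and Slc1a3 (-3.06, 0.0114). These genes were not read without Pitx3 pair 2 or 3, where 0.214% and 0.118% of all genes were called.

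Proteins that bind and place the receptors were mostly higher in the positive fractions of all 3 lines. Of 38 auxiliary and scaffold genes 29 were tested, with 28 higher in the Nurr1 sort (median 0.37 against -0.02 for all genes), 26 in the Pitx3 sort (0.40 against 0.01) and 22 in the Hes5 sort (0.24 against 0.04). Pan-neuronal markers moved with them, with medians of 1.31, 0.76 and 0.45 in the Nurr1, Pitx3 and Hes5 sorts, and their part was not tested. The paired fit called 0 in the Nurr1 and 0 in the Hes5 sort, and 3 rose in the Pitx3 sort: Cacng2, an AMPA receptor auxiliary subunit (1.30, SE 0.16, limma adjusted p = 0.00649), Homer2, a postsynaptic scaffold that binds metabotropic receptors (0.97, SE 0.24, 0.03), and Grip1, which binds AMPA receptors (0.71, SE 0.14, 0.0188). In the same fit 15.2% of all genes were called in the Pitx3 sort, 6.31% of them higher and 8.87% lower. The shares called were 0.766% in the Nurr1 and 1.3% in the Hes5 sort. Of the 5 glycine receptor genes only Glra2 was tested, and it was not called (2.04 in the Nurr1 and 1.78 in the Pitx3 sort, paired adjusted p = 0.144 and 0.131). The chloride importer Slc12a2, which helps to set the direction of GABA-A currents, fell in the Pitx3 sort (-0.62, SE 0.17, paired adjusted p = 0.0421). The other chloride transporter listed, Slc12a5, was not tested, so the balance of the 2 was not read. Without Pitx3 pair 1, Cacng2 (1.27, adjusted p = 0.0104) and Grip1 (0.84, 0.0179) were still called, and Homer2 (0.91, 0.0903) and Slc12a2 (-0.62, 0.105) were not. These genes too were not read without Pitx3 pair 2 or 3. Without pairs none of these lists had a called gene in any sort.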

How the data were processed

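RNA levels were measured on 18 Illumina bead arrays. Per the file headers, the deposited scanner table gives a mean bead intensity for 45281 probes, neither background-subtracted nor normalized, with a detection p-value against negative control beads and the count of beads averaged (at least 11). The authors' second deposited table holds log2 values for 31441 genes, not normalized between arrays. Per the submitters' processing notes, GenomeStudio and Partek were used, without versions. The scanner table names no genes, so probes were tied to genes by matching intensities to the deposited gene values on all 18 arrays, and every gene was tied. Old symbols were updated through RefSeq names.

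The neqc function of limma 3.58.1 in R 4.3.3 (offset 16) corrected background from the detection p-values, quantile normalized the intensities and returned log2 values. Probes with a detection p-value under 0.01 on at least 3 arrays were kept (18737), and each gene was read from its brightest kept probe (13580 genes). Limma fitted 6 group means (12 residual degrees of freedom). A paired fit added a replicate block, 1 for each number in each line (6 residual degrees of freedom), because deviations from group means correlated at 0.43 to 0.77 between same-numbered fractions, against -0.64 to 0.17 otherwise. Precision is limited by the number of arrays. The fits were tested on simulated data. The 18 columns of bead spread were not used. Python 3.11.15 with numpy 2.4.6, pandas 2.3.3 and numba 0.67.0 did the matching.

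The results of some members are not reported here. The genes were chosen by symbol, and the members and lists with earlier results of these data known. Values on every array are given for members called in any comparison and, in each class, for the brightest tested member and that with the largest Pitx3 difference. From partner lists at most 4 called genes per sort are named.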

Additional observations from a re-analysis of the deposited data

How the results depend on the processing

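No result reversed its direction. Without pairs limma called 0 receptor genes in each of the 3 sorts. The replicate block called 1 in the Hes5, 0 in the Nurr1 and 4 in the Pitx3 sort, and with no filter on dim probes, an alternative added after the data were seen, 0, 0 and 2 (Gria3 and Grm8), against 0.165%, 0% and 3.91% of all genes. Leaving out 1 pair at a time from the paired fit gave 0 to 2, 0 to 4 and 0 to 5 calls in the Hes5, Nurr1 and Pitx3 sorts, and 0 to 2 for the Pitx3 minus Hes5 effect. The share of all genes called in these fits ran from 0.0221 to 8.95%, 0 to 8.82%, 0.118 to 24.1% and 0 to 5.28%, in the same order. The 4 in the Nurr1 sort (Gria2, Gria3 and Grik2 among them) came without Hes5 pair 1. The Pitx3 sort had 0 without Pitx3 pair 2 or 3, where 0.214% and 0.118% of all genes were called. Leaving out 1 array at a time gave 0 to 2 calls in the Pitx3 sort. The 2 (Gabrb2 and Gria3) came without the first Pitx3-positive array, where 7.7% of all genes were called. Gabrb2 had passed the 3-array filter only through Pitx3-positive and Nurr1-positive arrays. Between Pitx3-positive and Hes5-positive cells it gave 0 to 5, with 5 without the same array (12.5% of all genes). Between Pitx3-negative and Hes5-negative cells it gave 0 to 1, with 1 without the second Hes5-negative array (4.93% of all genes). Between Pitx3-positive and Hes5-positive cells the count stayed at 1 with no filter, but the called gene was another, Grm8 (adjusted p = 0.0194). It became 0 with the deposited table as it stands (2.86% of all genes called) and 0 with only the arrays of the groups compared (0.0295%). The causes were not tested. Other comparisons had 0 calls in all settings. The slide was not run as a block because the headers give none. Partner genes without Pitx3 pair 1 and correlations over 16 arrays were alternatives added after the data were seen. Members near background have values limited by signal over background.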

Other observations

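Grm8, a presynaptic metabotropic receptor, was not above background on any array, yet its probe was brighter in Nurr1-positive (5.25, 5.91 and 5.64) and Pitx3-positive cells (5.32, 5.95 and 5.67) than on the other 12 arrays, where it was 4.54 to 4.88. Its detection p-values in these 6 arrays were 0.0139 to 0.0791. No fold is given, since both sides were below background. With no filter on dim probes (31441 genes), limma gave paired adjusted p = 0.0246 in the Pitx3 sort and 0.0888 in the Nurr1 sort (without pairs 0.0808 and 0.268). Between Pitx3-positive and Hes5-positive cells limma without pairs gave an adjusted p of 0.0194, with 1.23% of all genes called. Grm8 was singled out after its values were seen. A separate row, MGLUR8, that RefSeq names Grm8 had group means of 4.48 to 4.59.

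Of 9 clone rows that RefSeq now gives a receptor subunit name, 2 were tested, those of Grm7 and Grin3a. The Grin3a clone row had 7.48 ± 0.96 (SD, n = 3) in Nurr1-positive against 6.31 ± 0.97 in Nurr1-negative cells, and 7.57 ± 0.93 against 6.77 ± 0.94 in the Pitx3 line, and it was not called (limma paired adjusted p = 0.247 and 0.357).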
